A study of Rattus norvegicus with 47 samples.

Results

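Kidneys of rats that had carried an aluminium (Al) pellet for 12 months were compared with kidneys of rats that had carried a tungsten (W) pellet for the same time. The comparison takes all genes of the raw count table in the 8 Al and 8 W libraries, chosen by the metal in the labels, which is 16 of the 47 libraries of the series. Each rat had been assigned at random to a metal, 8 to a group, and every pellet was a cylinder 1 mm across and 2 mm long. The 8 tantalum (Ta) libraries, from rats with a pellet of the metal the study used as its inert control, are given last beside the Al and W values. All groups carried a pellet, so none of the values comes from an unimplanted kidney. The numbers in the library labels form a separate run for each metal, so metal and anything that follows that order cannot be told apart. The strain, sex and age of the rats, the site of the implant and the part of the kidney taken are not given in the sources used here. RNA came from homogenised tissue, so fewer cells of a type and less RNA per cell cannot be told apart.

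Aluminium is a light metal with no known role in mammalian cells, and it is cleared mainly through the kidney. Tungsten dissolves to tungstate, an anion that chemically resembles molybdate and phosphate and that is excreted in urine. The renal tubule reabsorbs most of what the glomerulus filters, and its proximal and thick ascending segments are dense in mitochondria. Their inner membrane carries the respiratory chain, built from a few subunits encoded in the mitochondrion and many small subunits that are encoded in the nucleus, made on cytosolic ribosomes and imported through the TOM and TIM complexes.

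Total counts lay between 24374842 and 31506996 in the 16 libraries, with a median of 26528501.5. Genes with at least 1 count numbered 16515 to 17344 in Al libraries and 14878 to 16300 in W libraries, and they stood at 14981 to 16604 in Ta libraries. In the other groups of the series they numbered 16219 to 17050 with lead, 17087 to 18015 with depleted uranium and 14538 to 16257 with cobalt. The Ta, W and cobalt libraries carry lower label numbers than the Al, lead and depleted uranium libraries. They also had the lower ranges, with some overlap. The part of label order in this was not tested. After the Al, W and Ta libraries had been thinned to 23259750 counts, the median was 16711.5 genes in Al and 16015 in W. Al and W libraries still did not overlap (two-sided exact permutation test, p = 0.000155, the smallest this design can give, and 0.000622 adjusted over 4 library measures). The cytosolic ribosomal protein genes stood above the genes of very large proteins by 3.32 ± 0.45 log2 units in Al libraries, 2.79 ± 0.32 in W and 2.36 ± 0.30 in Ta (SD, n = 8 each; difference of mean log2 CPM, exact permutation test for Al against W, p = 0.0168, adjusted 0.0336). The part of this balance and of the number of detected genes in the results was not tested, beyond the fit with the balance as a covariate given with the counts.

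Libraries also differed by replicate number. The endothelial receptor gene Kdr was at 1.44 to 5.97 CPM (counts scaled to library size, in the usual unit) in Al replicates 5 to 8 and at 4.63 to 7.45 CPM in W replicates 5 to 8. In replicates 1 to 4 it was at 7.61 to 36.0 CPM in Al and at 39.5 to 56.3 CPM in W, and all Ta libraries lay between 35.5 and 47.1 CPM. Between replicates 5 to 8 and replicates 1 to 4, 35 genes (0.221% of those tested) were called in Al, all lower in replicates 5 to 8. In W 918 (5.79%) were called, 290 (1.83%) higher and 628 (3.96%) lower in replicates 5 to 8, and in Ta 0 were called by edgeR, with 691 at an unadjusted p under 0.05. On the first principal component, which held 21.1% of the variance, W replicates 5 and 7 lay farthest out, and Al replicate 6 lay farthest out on the second. For that reason, values within replicates 1 to 4 and within replicates 5 to 8 are given beside those over all 8.

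Among the genes that rose in Al kidneys against W kidneys were 28 of 75 cytosolic ribosomal protein genes, 22 nuclear-encoded subunits of the respiratory chain and ATP synthase, 5 of 22 mitochondrial import genes and 3 of 31 proteasome genes. Among the genes that fell were Srp72, Ywhae, Wac and Sos2. Of 15868 genes tested, 426 (2.68%) differed at an adjusted p under 0.05, 307 (1.93%) higher and 119 (0.75%) lower in Al. Most changes were small: the median log2 fold change was 0.49 among the higher genes and -0.35 among the lower ones, with 42 higher genes and 1 lower gene beyond 1 log2 unit. The median over all tested genes was 0.0016. In 74 tested genes (0.466%) every Al library was above every W library, and in 15 (0.0945%) every Al library was below; among the called genes these were 65 of the 307 and 9 of the 119. Over the 8 groupings that leave out Al replicate 3, 5, 6 or 7 or W replicate 1, 2, 3 or 4, the count fell to between 195 and 244. With the ribosomal to very large protein balance as a covariate, 91 genes were called higher and 38 lower, 95 of them among the 426; this covariate is built in part from genes of the outcome.

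The gene with the smallest p was Tomm7, a small subunit of the outer membrane import complex that also helps hold the kinase PINK1 on damaged mitochondria. It ranged from 70.4 to 112 CPM in Al libraries (median 93.0), from 32.9 to 64.7 in W (median 43.8) and from 25 to 44.2 in Ta (median 30.7). Every Al library was above every W library. The log2 fold change was 0.97 ± 0.12 (SE; adjusted p = 1.95e-06).

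Tmem256, which encodes a small membrane protein, gave the next smallest p. Its levels were 63.6 to 92.9 CPM in Al (median 83.7), 38.5 to 49.9 in W (median 45.1) and 26 to 41.7 in Ta (median 29.3), again without overlap of Al and W. The difference was 0.85 ± 0.11 log2 units (adjusted p = 2.94e-06). Arpp19, which inhibits the phosphatase PP2A once Greatwall kinase has phosphorylated it, was at 41.6 to 64.3 CPM in Al (median 54.2), 24.4 to 38 in W (median 33.2) and 26.7 to 33.9 in Ta (median 31.5). It rose by 0.72 ± 0.09 (adjusted p = 5.06e-06), and its W and Ta libraries covered much the same range.

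Cops9, the smallest subunit of the COP9 signalosome, which removes NEDD8 from cullin ubiquitin ligases, was at 45.2 to 69.5 CPM in Al against 31.5 to 41.1 CPM in W (0.71 ± 0.10, adjusted p = 1.84e-05). Naa38, an auxiliary subunit of the NatC N-terminal acetyltransferase, was at 65.9 to 91.7 CPM in Al against 41.2 to 61.3 CPM in W (0.71 ± 0.10, adjusted p = 2.7e-05). Bcl7c, a subunit of the SWI/SNF chromatin remodeller, was at 65.0 to 90.5 CPM in Al against 38.9 to 62.4 CPM in W (0.62 ± 0.09, adjusted p = 3.74e-05). In all of these genes the Al libraries lay above the W libraries with no overlap.

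**Figure D1:**
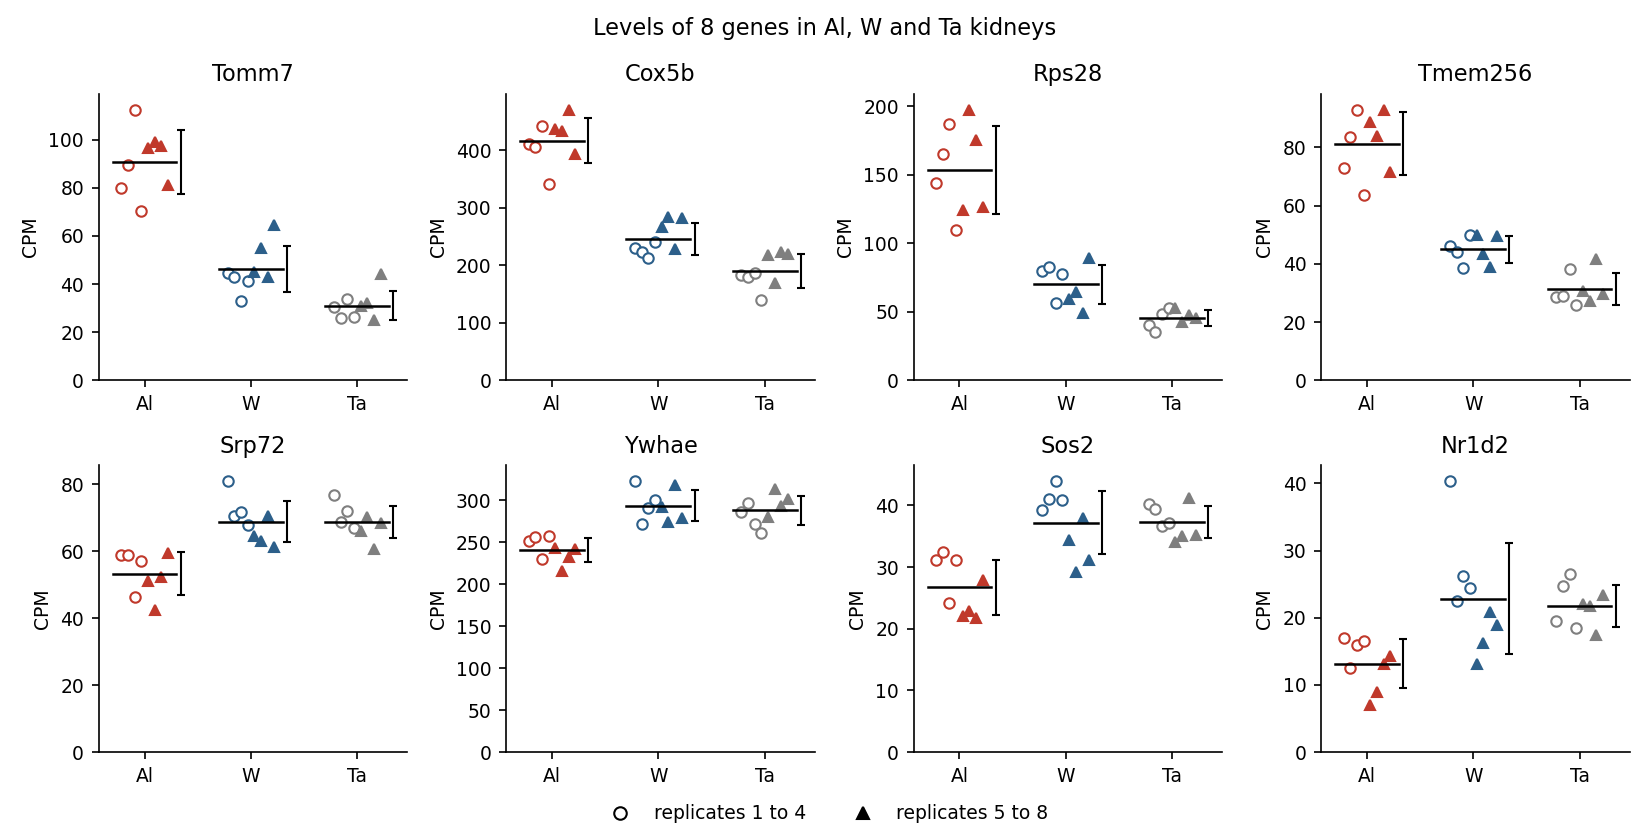
Levels in CPM (vertical axes, from 0) of 8 genes in each Al, W and Ta library (horizontal axes), with open circles for replicates 1 to 4, filled triangles for replicates 5 to 8, horizontal lines for group means and bars for SD. Tomm7, Cox5b, Rps28 and Tmem256 were above every W library in every Al library; Srp72 and Ywhae were below every W library in every Al library, while Sos2 and Nr1d2 overlapped.

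The start regions of 5 of the higher genes, from the import, respiratory, ATP synthase and ribosomal groups described next, are shown. Each gene was picked together with the letters to mark in it, so the 5 need not be typical of their groups. Each is a RefSeq window on GRCr8, a newer build than the mRatBN7.2 of the counts, from 120 bases before to 10 after the annotated start, on the gene's own strand; capitals mark letters searched for. Tomm7 (chr4:12197383-12197512, plus strand) and Atp5mc2 (chr7:135678209-135678338, minus strand) hold GCGCATGCG, letters of an NRF1 site, on both strands in overlap, beginning at -33 and -56 from the start. Cox5b (chr9:46417717-46417846, plus strand) and Ndufa13 (chr16:19560406-19560535, plus strand) hold CCGGAAG, letters bound by ETS factors such as GABP, at -14 and -9. Rps28 (chr7:15311324-15311453, minus strand) holds TATAAA at -23.
Tomm7: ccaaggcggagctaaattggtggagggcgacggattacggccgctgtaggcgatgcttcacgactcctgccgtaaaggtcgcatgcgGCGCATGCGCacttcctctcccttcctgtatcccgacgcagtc
Atp5mc2: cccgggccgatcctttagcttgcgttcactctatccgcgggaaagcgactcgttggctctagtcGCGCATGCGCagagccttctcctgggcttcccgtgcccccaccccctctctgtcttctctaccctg
Cox5b: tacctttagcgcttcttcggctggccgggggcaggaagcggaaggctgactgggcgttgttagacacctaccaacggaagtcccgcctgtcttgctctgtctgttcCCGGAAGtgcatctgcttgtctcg
Ndufa13: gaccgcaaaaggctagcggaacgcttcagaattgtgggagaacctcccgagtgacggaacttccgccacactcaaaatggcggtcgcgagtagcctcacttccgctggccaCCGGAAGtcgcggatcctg
Rps28: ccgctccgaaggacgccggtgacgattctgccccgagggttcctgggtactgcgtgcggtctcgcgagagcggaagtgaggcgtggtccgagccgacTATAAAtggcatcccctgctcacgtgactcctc

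Across whole windows of 300 bases (250 before and 50 after the start), both strands searched, CCGGAAG was present in 27.0% of the 222 higher genes with a window, in 18.4% of the 98 lower genes and in 15.5% of the 12023 tested genes that have one. GCGCATGCG was present in 4.05%, 6.12% and 2.89% of the same sets, and AAGATGGCG, letters of a YY1 site, in 6.76%, 5.10% and 3.28%. TATAAA was present in 8.56%, 2.04% and 7.75%, and CTCTTTCC, a pyrimidine run like those at ribosomal protein gene starts, in 3.60%, 4.08% and 3.04%. TCAAGGTCA, an extended site of oestrogen-related receptors, was present in 0.901%, 0% and 0.308%. The median GC content was 58%, 63% and 60%. Among the 19 higher respiratory and ATP synthase genes with a window, GCGCATGCG was in 10.5%, CCGGAAG in 42.1% and TATAAA in 5.26%. Among the 19 higher cytosolic ribosomal protein genes with a window, the shares in the same order were 0%, 42.1% and 10.5%. These letters are a description of the windows, and factor binding was not measured.

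Among subunits of complex I, the NADH dehydrogenase at the entry of the respiratory chain, 9 of 37 tested genes rose in Al and 0 fell, with a median log2 fold change of 0.26 over the 37. Ndufa1, a small subunit needed for assembly of the membrane arm, was at 98.7 to 140 CPM in Al (median 111), 58.1 to 84.3 in W (median 76.5) and 42.2 to 56.1 in Ta (median 53.2), with no overlap of Al and W. It rose by 0.67 ± 0.11 (adjusted p = 0.000265). Ndufa13, also known as GRIM-19, rose by 0.56 ± 0.11 (adjusted p = 0.00196), from levels of 126.5 to 188.9 CPM in Al and 89.8 to 130.6 CPM in W that overlapped. Ndufc1 and Ndufb2, accessory subunits of the membrane arm, rose by 0.81 ± 0.17 and 0.59 ± 0.13; the Ndufb2 libraries did not overlap.

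Complexes II and III, which feed and oxidise the ubiquinone pool, had 4 of 14 tested genes higher and 0 lower, with a median of 0.10. All 4 were accessory subunits of complex III. Uqcr11 was at 229.4 to 309.8 CPM in Al (median 279.8), 143.1 to 205.8 in W (median 174.9) and 99.8 to 161.6 in Ta (median 137.2), and rose by 0.63 ± 0.12 (adjusted p = 0.00177). Uqcrq and Uqcrh rose by 0.53 ± 0.12 and 0.47 ± 0.11. In Uqcr11, Uqcrq and Uqcrh no Al library came as low as a W library. Uqcrb overlapped, and its rise of 0.51 ± 0.14 (adjusted p = 0.029) was not called without any 1 of Al replicates 3, 5, 6 and 7 or W replicates 2, 3 and 4, where the adjusted p reached 0.0772.

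In complex IV, cytochrome c oxidase, which passes electrons to oxygen, 4 of 11 tested nuclear genes rose and 0 fell, with a median of 0.22 and all 11 on the higher side. Cox5b was at 340 to 470 CPM in Al (median 421), 212 to 284 in W (median 235) and 140 to 223 in Ta (median 185). The Al libraries stood clear of the others, and the difference was 0.76 ± 0.11 (adjusted p = 3.29e-05). Cox7c was at 259 to 434 CPM in Al and 181 to 259 CPM in W, groups that met but did not cross, and rose by 0.72 ± 0.11 (adjusted p = 0.000139). Cox6a1 rose by 0.51 ± 0.09 (adjusted p = 0.000433). The rise of Cox8a, 0.41 ± 0.12 (adjusted p = 0.0427), was lost in 11 of the 16 fits that leave out a single library, with an adjusted p of up to 0.107.

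ATP synthase, which uses the proton gradient of the chain, had 5 of 17 tested genes higher and 0 lower, with a median of 0.28 and all 17 on the higher side. Atp5mc2, a gene for the membrane ring subunit c, was at 378 to 512 CPM in Al (median 486), 281 to 386 in W (median 331) and 214 to 293 in Ta (median 267). It rose by 0.50 ± 0.09 (adjusted p = 0.000733), and the lowest Al library was inside the W range. Atp5me, a membrane subunit at the dimer interface, rose by 0.72 ± 0.17 with no overlap, and Atp5if1, the inhibitor that binds the enzyme when the gradient fails, rose by 0.36 ± 0.08 with overlap. Atp5pf, a stalk subunit, gave 0.44 ± 0.12 (adjusted p = 0.0359); without any 1 of 9 of the libraries its adjusted p passed the threshold, reaching 0.0975.

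The subunits of the same complexes that are encoded in the mitochondrion gave no calls. Of 13 genes, 0 were called in either direction by edgeR, by DESeq2 or by limma voom. In the same order, 2.68%, 3.96% and 10.4% of all tested genes were called. Of the 13, 1 had an unadjusted edgeR p under 0.05, beside 2550 of the 15868 tested genes. The median log2 fold change of the 13 was -0.16. ND5, of complex I, averaged 4877 CPM in Al and 5989 CPM in W (-0.30 ± 0.14, adjusted p = 0.267), and ND3 averaged 2245 CPM in Al and 1722 CPM in W (0.38 ± 0.19, adjusted p = 0.323). The 13 genes together took 19.1% ± 1.92 of counts in Al and 20.8% ± 1.77 in W (SD, n = 8 each; exact permutation test, p = 0.0841, adjusted 0.112). ND5 and ND3 were chosen after their values were seen. The difference between the nuclear and the mitochondrial sets was not tested.

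**Figure D2:**
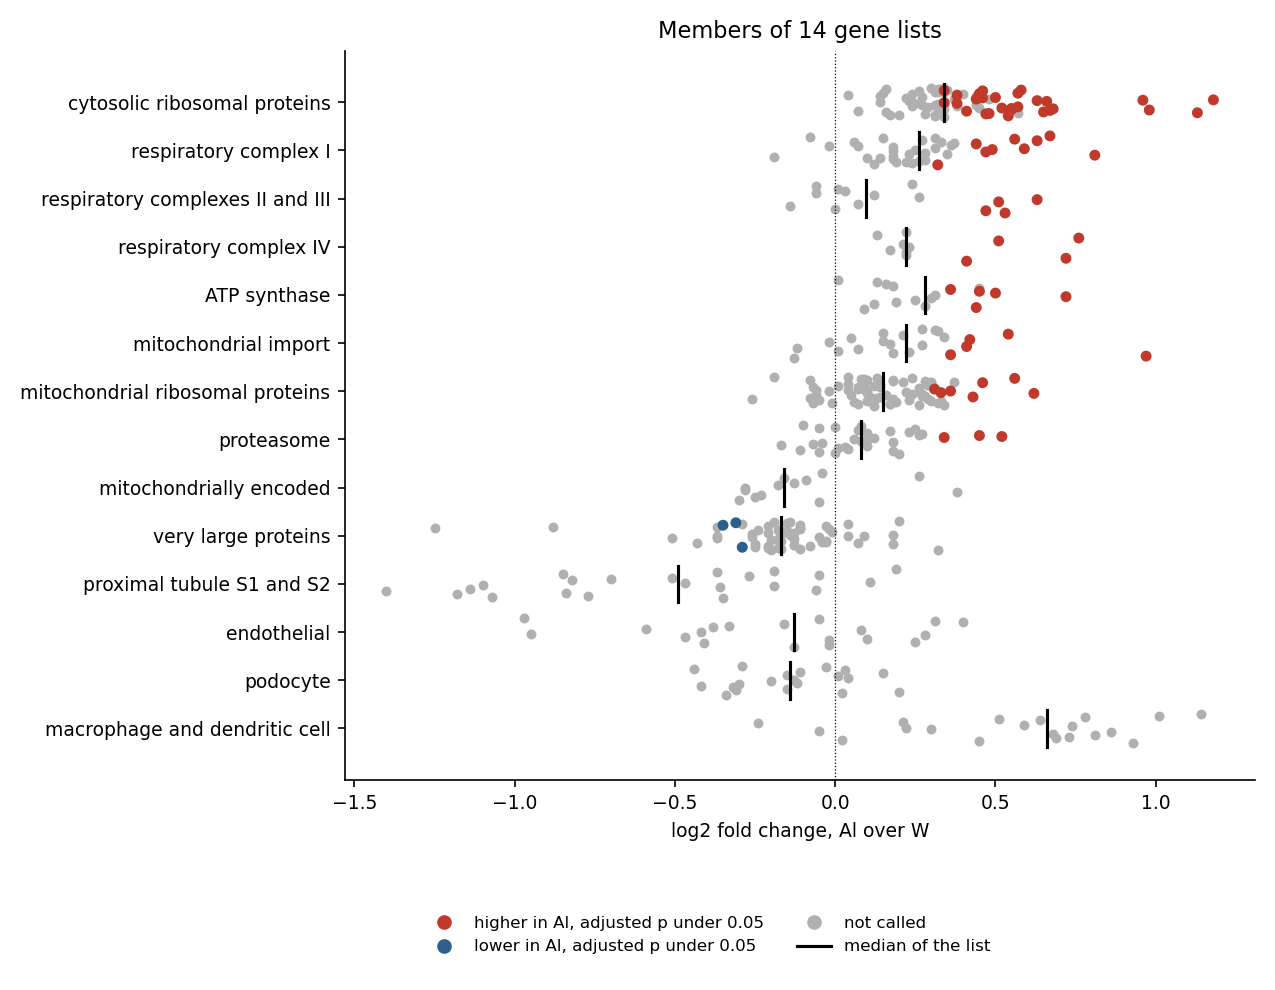
Log2 fold change of Al over W (horizontal axis) of each tested member of 14 gene lists (rows), with red points for genes called higher, blue for genes called lower, grey for genes not called and a black bar at the list's median. The red points lie in the first 8 rows, with medians of 0.08 to 0.34; the very large protein row holds 3 blue points, and the 4 cell type rows hold grey points only.

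Mitochondrial import genes had 5 of 22 tested members higher and 0 lower (median 0.22), Tomm7 among them. Timm13, a small chaperone of the intermembrane space, was at 112 to 171 CPM in Al against 75.7 to 118 CPM in W, and rose by 0.54 ± 0.10 (adjusted p = 0.000779). Timm22, the channel for carrier proteins of the inner membrane, was at 21.9 to 26.5 CPM in Al against 13.9 to 21.1 CPM in W with no overlap, and rose by 0.42 ± 0.09 (adjusted p = 0.00278). Tomm6, another small subunit of the outer membrane complex, gave 0.36 ± 0.09 (adjusted p = 0.0195), a call that 7 of the fits without a single library did not make (adjusted p up to 0.0936, without Al replicate 6).

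Cytosolic ribosomal protein genes formed the largest group: 28 of 75 tested genes rose and 0 fell, the median log2 fold change was 0.34, and all 75 were on the higher side. Rps28, of the small subunit, was at 110 to 197 CPM in Al (median 154), 49.3 to 89.3 in W (median 71.2) and 35.5 to 53 in Ta (median 46.6). Its Al libraries were all above its W libraries, and it rose by 1.13 ± 0.17 (adjusted p = 6.61e-05). Rps21 was at 143.2 to 231.3 CPM in Al (median 195.1), 76.2 to 113.8 in W (median 93.3) and 47.2 to 73.1 in Ta (median 64.4), also without overlap, a rise of 0.98 ± 0.16 (adjusted p = 0.000163). Rps14 and Rps18 rose by 0.57 ± 0.10 and 0.68 ± 0.12, and the Rps18 libraries overlapped. Ribosomal protein genes have many near-identical pseudogenes, and how reads that map to several places were counted is not given in the sources used here, so levels of single members are uncertain.

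The count of 28 depended on the model. With the balance covariate, which uses these same genes, 10 were called. With covariates for cell make-up, which are the mean levels of the endothelial and early proximal tubule lists only, 18 were called. Limma voom with quality weights called 56. The mean level over the 75 genes was 8.65 ± 0.27 log2 CPM in Al, 8.25 ± 0.14 in W and 7.98 ± 0.17 in Ta (SD, n = 8 each).

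The ribosome of the mitochondrion, which makes the 13 subunits encoded there, had 7 of 74 tested genes higher and 0 lower, with a median of 0.15. Mrpl54 was at 92.1 to 183.1 CPM in Al against 64.2 to 125.9 CPM in W (0.62 ± 0.13, adjusted p = 0.00376), and Mrpl14 at 29.6 to 50.9 CPM in Al against 21.7 to 34.5 CPM in W (0.56 ± 0.12, adjusted p = 0.00349). Both overlapped between groups. Mrpl27 rose by 0.46 ± 0.10 (adjusted p = 0.00476). Mrpl52 gave 0.33 ± 0.08 (adjusted p = 0.011), and 0.0625 without Al replicate 6. With the balance covariate, 0 of the 74 were called.

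Of 31 tested genes of the proteasome list, 3 rose and 0 fell (median 0.08). The 3 were Psmb5, Psmb6 and Psmb7, which encode the catalytic subunits of the constitutive core. Sem1, a proteasome lid subunit outside this list, was also called higher over all libraries. Psmb6 was at 91.7 to 149.4 CPM in Al (median 119.5), 72.0 to 103.1 in W (median 81.5) and 58.6 to 92.1 in Ta (median 66.0). It rose by 0.52 ± 0.10 (adjusted p = 0.00143), with overlap. Psmb5 rose by 0.45 ± 0.08 (adjusted p = 0.000825) and Psmb7 by 0.34 ± 0.08 (adjusted p = 0.0112).

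The 8 higher genes with the largest fold change and a mean of at least 1 CPM were Prdx1l1, Rps18l1, Rps15al4, Rpl37, Rom1, Rps28, Ltb and Lyrm9, between 1.5 and 1.08 log2 units. Prdx1l1, Rps18l1 and Rps15al4 are annotated as relatives of Prdx1, Rps18 and Rps15a, and they and Rpl37 were at 1.04 to 7.14 CPM in Al and 0.163 to 2.98 CPM in W, so reads of near-identical copies could set their values. Ltb, the lymphotoxin beta chain that lymphocytes display, was at 5.69 to 21.8 CPM in Al (median 8.31), 2.25 to 9.96 in W (median 3.36) and 2.96 to 16.3 in Ta (median 6.69). Its Al and W libraries overlapped, and its call (1.09 ± 0.32, adjusted p = 0.0498) was lost without any 1 of 11 libraries, with an adjusted p of up to 0.226 without Al replicate 6. Lyrm9, of the LYR motif family of mitochondrial proteins, rose by 1.08 ± 0.26 (adjusted p = 0.0131). Rom1, known for its structural role in photoreceptor discs, was at 2.77 to 4.52 CPM in Al against 0.653 to 2.36 CPM in W with no overlap (1.15 ± 0.29, adjusted p = 0.0179), and had an adjusted p of 0.0528 without W replicate 1. The calls of Rps15al4 (without Al replicate 6 or W replicate 1, adjusted p up to 0.0694) and Rpl37 (in 10 such fits, up to 0.111) were also lost.

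Genes that fell in Al changed by less. Srp72, a protein of the signal recognition particle that brings nascent secretory proteins to the endoplasmic reticulum, was at 42.5 to 59.5 CPM in Al (median 54.6), 61.4 to 80.9 in W (median 69.2) and 60.6 to 76.9 in Ta (median 68.7). Every Al library was below every W library, and the difference was -0.37 ± 0.07 log2 units (adjusted p = 0.00198). Ywhae, an adaptor that binds phosphorylated serines in many signalling proteins, was at 216 to 257 CPM in Al (median 242), 272 to 322 in W (median 291) and 261 to 313 in Ta (median 289), and gave -0.28 ± 0.06 (adjusted p = 0.00199). Wac, an adaptor that ties histone ubiquitination to transcription, was at 66.1 to 83.3 CPM in Al against 83.4 to 107 CPM in W and gave -0.36 ± 0.07 (adjusted p = 0.00353). In Srp72, Ywhae and Wac the W and Ta libraries covered much the same range.

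Sos2, an exchange factor that loads Ras with GTP, was at 21.8 to 32.4 CPM in Al (median 26.1), 29.2 to 43.9 in W (median 38.6) and 34.1 to 41.2 in Ta (median 36.9). The groups overlapped, and the difference was -0.48 ± 0.10 (adjusted p = 0.00252). U2surp, a splicing factor associated with the U2 particle, Crbn, the substrate receptor of a cullin ubiquitin ligase, Mapk9, the stress kinase JNK2, and Scyl2, a pseudokinase of clathrin trafficking, fell by 0.32 ± 0.07, 0.40 ± 0.09, 0.39 ± 0.09 and 0.40 ± 0.09 on the log2 scale, with adjusted p between 0.00404 and 0.00546. In each, all 8 Al libraries were below the W median.

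By size, the lower genes were led by Alb, the albumin gene, which is a liver gene at trace level in kidney. It was at 0 to 1.62 CPM in Al (median 0.536) and 0.364 to 95.9 CPM in W (median 2.59), and Ta lay at 0.195 to 1.51 CPM (median 0.774). A single library, W replicate 2, held the 95.9, and the other W libraries reached 6.72 CPM. The fitted difference was -4.42 ± 1.15 (adjusted p = 0.0251), and without W replicate 2 it was -2.06 ± 0.98 and not called (adjusted p = 0.317). Neither was it called without Al replicate 3, 5 or 6.

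Nr1d2, the clock repressor REV-ERB beta, was at 6.94 to 17 CPM in Al (median 13.8), 13.1 to 40.3 in W (median 21.7) and 17.4 to 26.6 in Ta (median 21.9). It fell by 0.79 ± 0.21 on the log2 scale (adjusted p = 0.0254), with overlap, and was not called without Al replicate 5 or 6 or W replicate 1 or 3 (adjusted p up to 0.105). It was the only one of 19 tested circadian genes called by edgeR over all libraries, beside a median of -0.31 over the 19. DESeq2 called 2 of the 19, limma voom 5, and edgeR within replicates 1 to 4 called 2. In the same order, 3.96%, 10.4% and 1.44% of all tested genes were called. Nr1d1, the paralogue of Nr1d2, gave -0.83 ± 0.26 (adjusted p = 0.0713) and Per3 -0.80 ± 0.27 (adjusted p = 0.106). Arntl, the activator of the clock, gave 0.12 ± 0.19 (adjusted p = 0.817). Nr1d1, Per3 and Arntl were chosen after their values were seen. The hour at which tissue was taken is not given in the sources used here.

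The other lower genes by size were Srek1ip1, Dab2, Zfp709, Rprd1b, Ccser2 and Myo5a, between -0.73 and -0.59. Dab2, the adaptor that works with megalin in uptake by the proximal tubule, was at 119 to 227 CPM in Al (median 180), 168 to 394 in W (median 265) and 234 to 307 in Ta (median 294). It gave -0.63 ± 0.18 over all libraries (adjusted p = 0.0466), -0.93 ± 0.19 in replicates 1 to 4 and -0.20 ± 0.19 in replicates 5 to 8. Myo5a, an actin motor of vesicles, gave -0.59 ± 0.16 (adjusted p = 0.0302). All 6 lost their call in 7 to 13 of the 16 fits that leave out a single library, Al replicates 3, 5, 6 and 7 and W replicates 1, 2, 3 and 4 among them for 1 gene or more, with the highest adjusted p between 0.0832 and 0.138.

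Among 60 tested genes of very large proteins, 0 rose and 3 fell, with a median of -0.17. They were Ankhd1, an ankyrin repeat scaffold, Birc6, an inhibitor of apoptosis with ubiquitin ligase activity, and Usp9x, a deubiquitinase. Birc6 was at 94.5 to 142.1 CPM in Al (median 130.9), 126.8 to 191.8 in W (median 163.1) and 121.8 to 196 in Ta (median 162.6), with overlap, and gave -0.35 ± 0.10 (adjusted p = 0.0339). Ankhd1 gave -0.31 ± 0.08 and Usp9x -0.29 ± 0.08. None of the 3 calls held in every fit without a single library: W replicate 2 ended that of Ankhd1 (adjusted p = 0.0514), Al replicates 3, 5, 6 and 7 and W replicates 1 to 4 those of Birc6 (up to 0.0974) and Usp9x (up to 0.117), and W replicate 7 also that of Usp9x.

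Higher and lower genes differed in the length of genome they span. In RefSeq, 270 of the higher genes had a span with a median of 4.74 kb, 118 of the lower genes had a median of 62.8 kb, and the median of 14764 tested genes was 23.9 kb. Of genes under 5 kb, 7.45% were higher and 0.0532% lower; of genes over 100 kb, 0.332% were higher and 1.42% lower. The median log2 fold change over all tested genes went down from 0.19 under 5 kb to -0.14 over 100 kb. The trend had the same direction in replicates 1 to 4 (0.20 to -0.16) and in replicates 5 to 8 (0.18 to -0.12). Among higher genes outside the 8 lists of ribosomal, respiratory, import and proteasome genes the median span was 5.42 kb. The part of span, and of the ribosomal to very large protein balance of the libraries, in the calls was not tested.

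**Figure D3:**
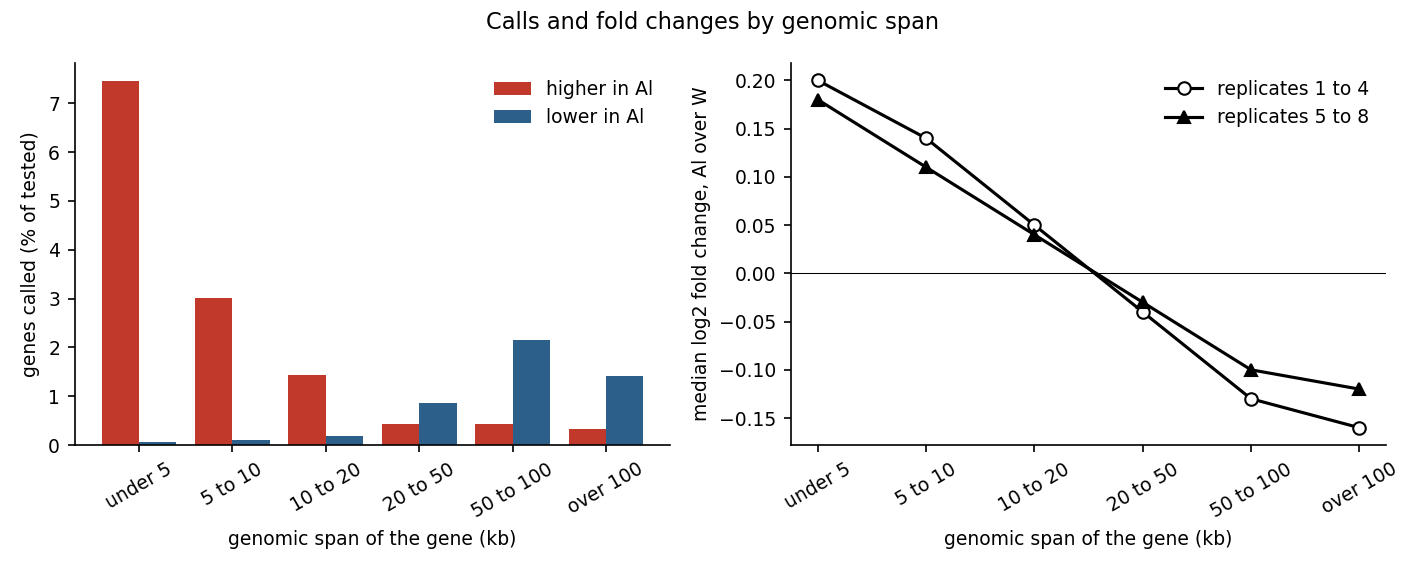
Left, genes called higher (red) and lower (blue) in Al as a percentage of tested genes, in 6 bins of genomic span in kb; right, median log2 fold change of Al over W in the same bins, with open circles for replicates 1 to 4 and filled triangles for replicates 5 to 8. The share of higher genes fell from 7.45% in the shortest bin to 0.332% in the longest, and the medians of both sets of replicates went from above to below 0.

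Lists of genes that respond to metals and stress had 1 or 0 genes called by edgeR. Over all tested genes edgeR called 2.68%, DESeq2 3.96% and limma voom 10.4%. In lists of 12 to 26 tested genes, a count of 0 or 1 cannot be told apart from the edgeR share. Among 16 tested metallothionein, zinc and copper genes edgeR and DESeq2 each called 1 and limma voom 3. The gene that edgeR called was Ccs, the chaperone that loads copper into superoxide dismutase, which was at 74.5 to 122.5 CPM in Al (median 100.7), 54.6 to 84.7 in W (median 72.6) and 43.9 to 67.7 in Ta (median 55.5). It rose by 0.54 ± 0.11 (adjusted p = 0.00344), with overlap; with the balance covariate it was not called. The metallothionein genes, which bind zinc and copper and respond to many metals, were not called: Mt1 was at 119 to 531 CPM in Al (median 314) and 85.8 to 534 in W (median 332), and Mt2A at 388 to 866 CPM in Al (median 536) and 243 to 727 in W (median 489). Their differences were -0.21 ± 0.32 (adjusted p = 0.807) and 0.19 ± 0.33 (adjusted p = 0.835). The NRF2 and glutathione list (26 tested), the antioxidant enzymes (14), the heme genes (12), the endoplasmic reticulum stress genes (25) and the iron genes (12) had 0 called in either direction by edgeR. In the same order 1, 4, 1, 6 and 2 of their genes had an unadjusted p under 0.05, beside 2550 of the 15868 tested genes. Among these lists DESeq2 called 1 antioxidant gene and no other. Limma voom called 3 antioxidant genes, 2 endoplasmic reticulum stress genes and 1 NRF2 and glutathione gene.

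Hspa4l, an HSP110 family chaperone, was the only one of 18 tested heat shock genes that edgeR called over all libraries, at 8.55 to 14 CPM in Al and 11.8 to 20.7 CPM in W (-0.47 ± 0.13, adjusted p = 0.0437). DESeq2 called 4 of the 18, limma voom 6, and edgeR within replicates 1 to 4 called 2, beside 3.96%, 10.4% and 1.44% of all tested genes. Bax, which permeabilises the outer mitochondrial membrane in apoptosis, was the only one of 14 tested p53 targets that edgeR called, at 47.8 to 86.9 CPM in Al (median 53.3), 33.2 to 54.0 in W (median 41.5) and 25.3 to 42.0 in Ta (median 33.4), a rise of 0.42 ± 0.11 (adjusted p = 0.0284). Both groups of libraries overlapped for each gene. Neither call held without Al replicate 6, where the adjusted p was 0.124 for Hspa4l and 0.157 for Bax, and each was also lost without Al replicate 3 or 7 or any 1 of W replicates 1 to 4; that of Hspa4l was lost without Al replicate 8 or W replicate 5 or 7 too.

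None of the genes read as markers of injury differed at the threshold. In the tubular injury list edgeR called 0 of 24 tested genes, which cannot be told apart from the 2.68% of all tested genes. The median log2 fold change was 0.37. An unadjusted p under 0.05 was found for 1 of the 24, beside 2550 of the 15868 tested genes. Of the 24, 20 were positive, beside 7973 of the 15868 tested genes. Havcr1 (KIM-1), shed by injured proximal tubule cells, was at 14.4 to 165 CPM in Al (median 33.8), 4.27 to 77.2 in W (median 16) and 3.86 to 97.5 in Ta (median 20.5), with a difference of 1.04 ± 0.74 (adjusted p = 0.516). Lcn2 (NGAL), an iron-siderophore carrier, was at 13.2 to 250 CPM in Al (median 24.6) and 5.87 to 79.6 in W (median 8.77), with 1.38 ± 0.95 (adjusted p = 0.501). Single libraries reached far above the rest in both groups. Spp1, Clu and Timp1 gave 0.73 ± 0.59, 0.61 ± 0.49 and 0.84 ± 0.56, Hmox1 and Nqo1 0.38 ± 0.51 and -0.19 ± 0.22, and Cdkn1a 0.40 ± 0.24. Al libraries above the W median numbered 8 for Lcn2, Spp1 and Timp1 and 7 for Havcr1. They numbered 6 for Clu and Cdkn1a, 5 for Hmox1 and 2 for Nqo1. Without Al replicate 6 the differences were 0.43 for Havcr1, 0.37 for Lcn2, 0.14 for Spp1, 0.02 for Clu, 0.43 for Timp1 and 0.20 for Hmox1. Umod, made by the thick ascending limb, was at 2448 to 6469 CPM in Al and 2481 to 5262 in W (0.11 ± 0.27, adjusted p = 0.895).

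Cyp24a1, the enzyme that inactivates vitamin D, was the closest to the threshold of the panel genes that were not called: 36.7 to 84.5 CPM in Al (median 64.3), 62.8 to 183.6 in W (median 121.1) and 67.5 to 194.5 in Ta (median 97.7). All 8 Al libraries were below the W median, with a difference of -0.91 ± 0.27 and an adjusted p of 0.0578.

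Marker genes of the cell types of the kidney were not called by edgeR in any list, over podocyte (20 tested), endothelial (19), pericyte (16), fibroblast (28), proximal tubule (22 and 14), thin limb (13), thick ascending limb (14), distal convoluted tubule (13), principal (14), intercalated (14), macrophage (20), T and NK (19) and B cell (11) genes, nor among the erythroid (10), adipocyte (10) and urothelial (11) genes. DESeq2 called 1 early proximal tubule gene and 1 B cell gene. Limma voom called 5 early proximal tubule genes, 1 gene of the late proximal tubule, 3 T and NK cell genes and 2 podocyte genes. It also called 1 gene each of the fibroblast, distal convoluted tubule and intercalated lists. Over all tested genes edgeR called 2.68%, DESeq2 3.96% and limma voom 10.4%. In the early proximal tubule list 8 of 22 had an unadjusted edgeR p under 0.05, beside 2550 of the 15868 tested genes. Levels of the marker genes were far apart between libraries all the same. The early proximal tubule list averaged 7.38 ± 0.38 log2 CPM in Al, 7.82 ± 0.73 in W and 8.10 ± 0.11 in Ta (SD, n = 8 each), with a median log2 fold change of -0.49. In replicates 1 to 4 this list was at 7.41 to 7.86 in Al and 8.35 to 8.58 in W, with no overlap, and in replicates 5 to 8 at 6.87 to 7.27 in Al and 6.63 to 7.65 in W.

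Slc34a3, a sodium phosphate transporter of that segment, was at 5.65 to 72.5 CPM in Al (median 19.7), 3.34 to 134.2 in W (median 77.3) and 57.6 to 103.3 in Ta (median 75.7). The difference of -1.14 ± 0.64 had an adjusted p of 0.383. Kdr, with -0.95 ± 0.53, had 0.375. Both had low values in replicates 5 to 8 of Al and of W and not in those of Ta.

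Macrophage and dendritic cell genes had a median log2 fold change of 0.66, made up of 0.10 in replicates 1 to 4 and 1.15 in replicates 5 to 8. Their mean level in replicates 5 to 8 was 2.19 to 4.28 log2 CPM in Al and 1.10 to 3.17 in W, ranges that overlapped. T and NK cell genes had a median of 0.85, with Cd3d, a chain of the T cell receptor complex chosen here after its values were seen, at 2.03 ± 0.59 (adjusted p = 0.0505). Of the 20 macrophage and the 19 T and NK cell genes, 3 and 5 had an unadjusted p under 0.05, beside 2550 of the 15868 tested genes.

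**Figure D4:**
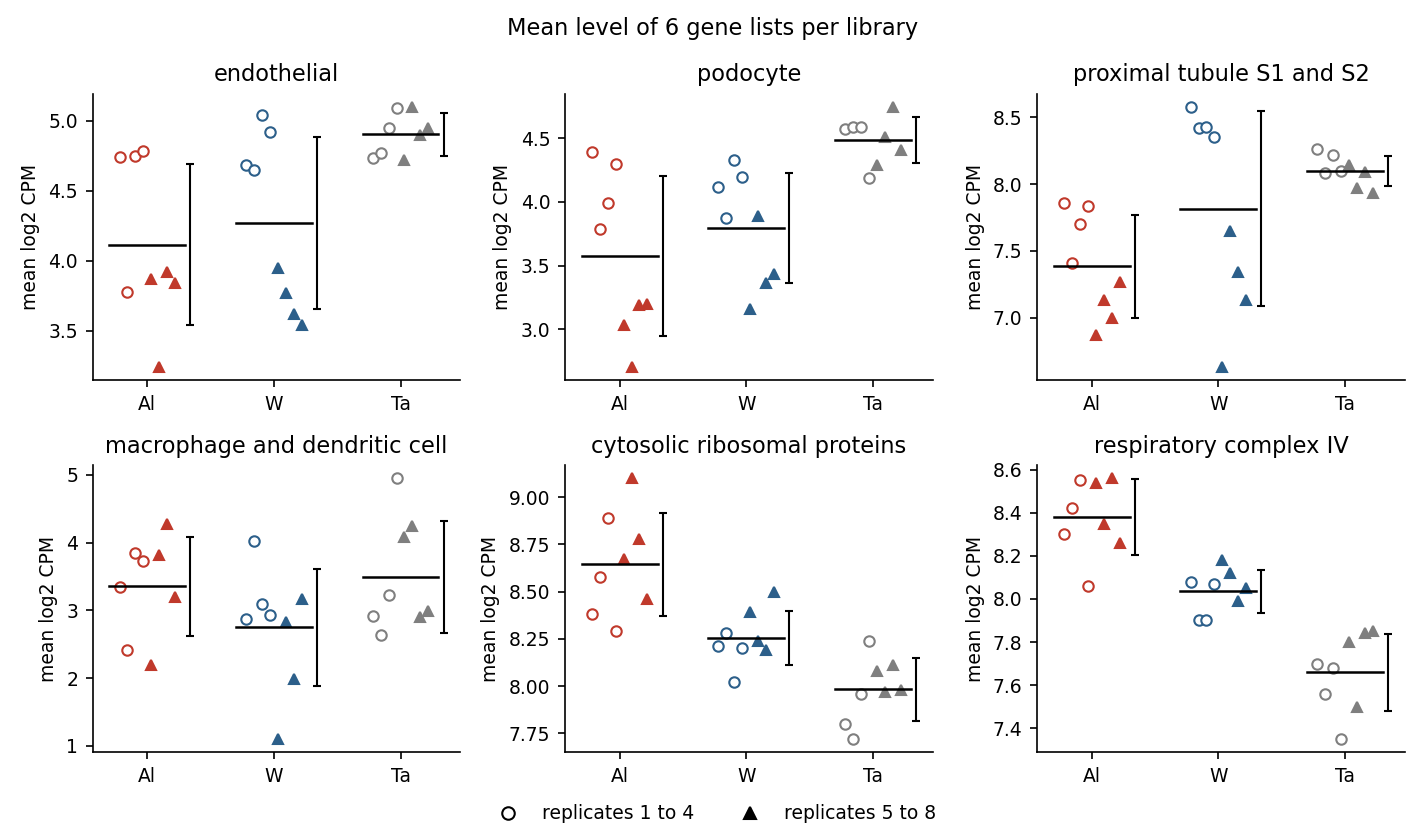
Mean log2 CPM (vertical axes) of 6 gene lists in each Al, W and Ta library (horizontal axes), with open circles for replicates 1 to 4, filled triangles for replicates 5 to 8, lines for group means and bars for SD. Endothelial, podocyte and proximal tubule lists were lower on average in replicates 5 to 8 than in 1 to 4 in Al and W, with Al replicate 2 among the low endothelial values, while the ribosomal and complex IV lists were higher in Al than in W in both sets of replicates.

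Within replicates 1 to 4, 229 genes (1.44%) were called between Al and W, 184 (1.16%) higher and 45 (0.284%) lower. Within replicates 5 to 8, 27 (0.17%) were called, all higher. Both sets called 22 genes in the same direction, which is 9.61% of the 229 and 81.5% of the 27. They include Tomm7, Tmem256, Rps28, Rps21, Rps18, Arpp19, Cops9, Naa38, Bcl7c, Cox5b, Cox7c, Ndufa1 and Psmb6, and outside the naming rule Rpl38, Rpl41, Sem1, Cox14, Tmem258 and Anapc13, chosen after their values were seen. Tomm7 rose by 1.12 ± 0.16 in replicates 1 to 4 and by 0.85 ± 0.16 in replicates 5 to 8, and Rps28 by 1.03 ± 0.21 and 1.25 ± 0.21. Sem1, a small proteasome lid subunit, rose by 0.71 ± 0.13 and 0.72 ± 0.13.

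The 307 higher genes all had a positive log2 fold change in each set of replicates, with medians of 0.54 in replicates 1 to 4 and 0.47 in replicates 5 to 8, and the 119 lower genes a negative one, with -0.37 and -0.31; the genes were called on the same libraries, which fixes part of this. A direct test of whether the difference of Al from W changed between the sets called 0 genes with edgeR, where 471 had an unadjusted p under 0.05 and the smallest adjusted p was 0.531; DESeq2 called 2.

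**Figure D5:**
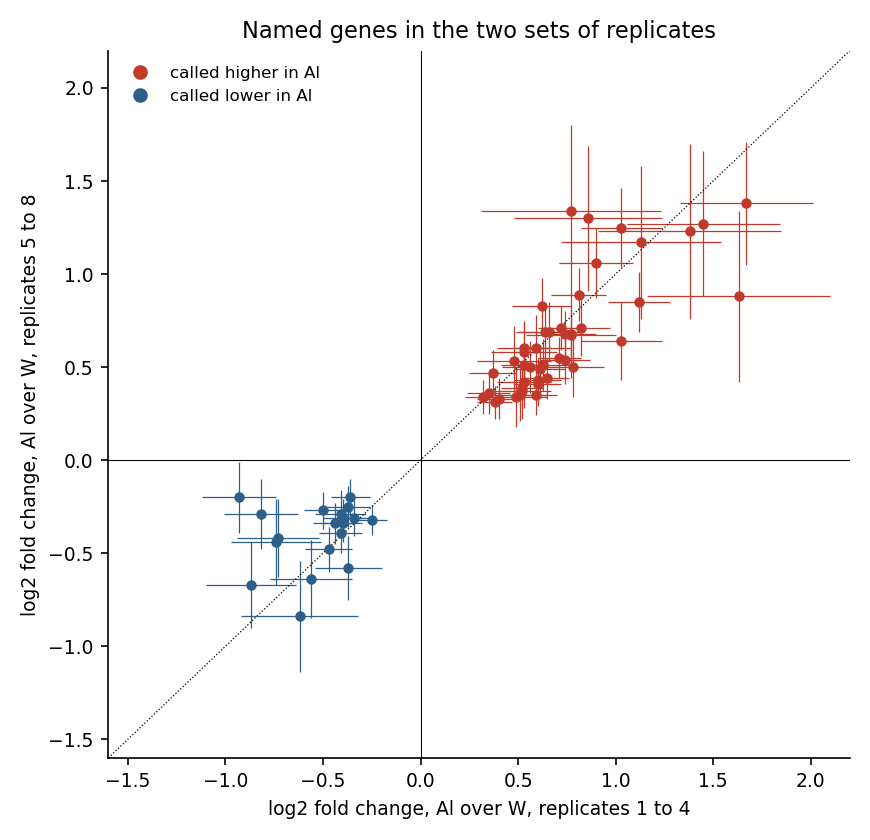
Log2 fold change ± SE of Al over W in replicates 1 to 4 (horizontal axis) and in replicates 5 to 8 (vertical axis) for 64 named genes called over all replicates, red where higher and blue where lower in Al; the dotted line marks equal values, and Alb, at -5.86 and -1.94, is left out. All points lie in the upper right or lower left of the plot.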

How the data were processed

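The table holds whole-number counts, not normalized, for each gene and library as the authors deposited it. The submitters' processing notes list STAR 2.7.2a, featureCounts, Subread 1.6.4 and the build mRatBN7.2. Annotation, strand setting and the treatment of reads with several map positions are not given in the sources used here, so genes overlapping on opposite strands and near-identical copies are uncertain. Of 22525 genes, 18641 symbols (82.8%) were found in RefSeq. A further 29 lines named no gene, at most 0.0558% of a library's counts, and were left out, with the 5 very long genes they broke up.

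One edgeR 4.0.16 fit (R 4.3.3) covered all 47 libraries in 6 groups, with filterByExpr, TMM scaling, the two-sided quasi-likelihood F test for Al minus W, and Benjamini-Hochberg adjustment over 15868 genes at 0.05. CPM use the TMM-scaled totals, and log2 CPM a prior count of 2. A second fit split each metal into replicates 1 to 4 and 5 to 8. The common dispersion was 0.124. The script was tested on simulated counts. It called 37.3% of genes changed by a fold of 1.5, 74.6% at a fold of 2 and 97% at a fold of 4, with 6 false calls. A gene that was not called can therefore still differ. The simulated counts held no split by replicate number and no shift of the ribosomal to very large protein balance between libraries. Only genes with a mean of at least 1 CPM were changed in them. The 6 false calls are thus no measure of the error in the real counts. Nothing in the labels tells apart spread between animals and technical spread.

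Named genes were the 8 higher and 8 lower called genes of largest change (mean of at least 1 CPM, no provisional symbol, at least 7 of 8 Al libraries on the same side of the W median), the 8 and 8 of smallest p at a mean of at least 10 CPM, up to 4 called members per list over 50 lists, and a panel of 14 genes. The comparison, the lists and the split by replicate number were chosen with earlier results of these data known.

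Other settings were DESeq2 1.42.0, limma 3.58.1 (voom, with sample quality weights), scaling by RLE or by the upper quartile, a strict filter (at least 1 CPM in 8 libraries) or none, only Al and W libraries, a replicate block, covariates, 3 surrogate variables (sva 3.50.0), a test against a fold of 1.5, a threshold of 0.1, and each library left out. Of 56 pairs of libraries within a group, none agreed within counting error (lowest chi-square per degree of freedom 15.7).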

Additional observations from a re-analysis of the deposited data

Results flagged for a closer look

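In 6 of the 158 combinations of a named gene and a group (3.8%), a single library stood apart from the other 7 by more than the 95% limit of Dixon's test; chance flags about 1 in 20 groups. In Al, replicate 6 was high for 3 genes: Bax at 86.9 CPM beside 47.8 to 61.6, Ltb at 21.8 CPM beside 5.69 to 10.6, and Timp1, an inhibitor of matrix proteases, at 44.4 CPM beside 8.05 to 16.5. In W, Mt1 was low in replicate 5, at 85.8 CPM beside 260 to 534, Prdx1l1 was high in replicate 8, at 2.82 CPM beside 0.885 to 1.44, and Rps15al4 was low in replicate 1, at 0.163 CPM beside 0.664 to 1.09.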

How the results depend on the processing

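Of 426 genes called (307 higher, 119 lower in Al), RLE factors gave 299 higher and 119 lower, upper quartile factors 355 and 100, the strict filter 419 in all, cell make-up covariates 285 and 86, and replicate number sets as a covariate 361 and 145. No filter gave 290 and 73, and DESeq2 393 and 236. Counts moved further with limma voom with quality weights (956 and 692), only Al and W libraries (172 and 37), replicates 1 to 4 (184 and 45) and replicates 5 to 8 (27 and 0). They also moved further with the balance covariate (91 and 38), 3 surrogate variables (507 and 192), a tested fold of 1.5 (3 and 0) and a threshold of 0.1 (491 and 262). The values for the sets of replicates come from the second fit of all 47 libraries. The cause of these moves was not tested. Leaving out each library gave 157 (without Al replicate 6) to 423 (without W replicate 8) higher genes and 36 (without Al replicate 7) to 210 (without W replicate 8) lower ones, and leaving out W replicates 5 and 7, a setting chosen after seeing the data, 349 and 177. The difference between sets of replicates gave 0 genes, or 2 with DESeq2, and 0 in the others. A replicate block gave 400 genes, and 344 with only Al and W libraries; libraries with the same number had a median correlation of 0.11 (-0.212 to 0.36), against -0.0406 for other numbers, and 2 of 8 correlated best with their own number, so the numbers were not taken as pairs.

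Of 65 named genes called, 43 stayed called in every fit without a single library, 29 with the balance covariate, 44 with only Al and W libraries, 39 in replicates 1 to 4, 13 in replicates 5 to 8 and 0 against a fold of 1.5; the other settings over all 8 libraries a group kept 51 or more. Direction turned in 14 cases, all for genes not called: with the balance covariate Clu (-0.30), Hmox1 (-0.17), Kdr (0.06), Lcn2 (-0.49), Mt2A (-0.35), Spp1 (-0.19) and Timp1 (-0.09); with cell make-up covariates Mt2A (-0.02) and Slc34a3 (0.24); with surrogate variables Clu (-0.18), Mt2A (-0.01) and Spp1 (-0.06); and in replicates 5 to 8 Cdkn1a (-0.02) and Umod (-0.05). The cause was not tested. The early proximal tubule list, whose mean is a cell make-up covariate, holds Slc34a3 itself. Depth limits genes under 1 CPM, many of which have few or no counts in a library.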

Other observations

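Genes with a mean under 1 CPM leaned towards Al. Of 2488 such genes tested, 62.8% had a positive log2 fold change, with a median of 0.23, and 21 were called, 21 higher and 0 lower. Over all tested genes 7973 of 15868 had a positive log2 fold change, 1.93% were called higher and 0.75% lower. The filter did not ask for counts in every group, so genes absent from W could be kept through libraries of other metals. Its part in the lean was not tested. Hand2, a transcription factor of heart and limb development, had 2 to 20 counts in each of the 8 Al libraries (86 in all) and 0 counts in every W and every Ta library. Chrna10, a subunit of nicotinic acetylcholine receptors, had 2 to 55 counts in the Al libraries, 2 counts in all W libraries together and 49 in all Ta libraries together. Gpr179, a retinal signalling protein, had 0 to 80 counts in the Al libraries (154 in all), 1 in W and 18 in Ta. Of the 21 genes, 7 had 0 counts in every W library. Slc39a2, a zinc importer, had 60 counts in Al, 2 in W and 26 in Ta. Hand2, Chrna10, Gpr179 and Slc39a2 were chosen after their values were seen. Their counts in the cobalt, lead and depleted uranium libraries are not given here, so none of them is shown to be particular to Al. The larger number of genes detected in Al libraries moved with these counts, and its part in them was not tested.

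Taf15, an RNA-binding protein chosen after its values were seen, was at 123.5 to 159.3 CPM in the 8 Al libraries, at 70.9 to 85.6 CPM in W replicates 1 to 4 and 106.4 to 144.3 CPM in W replicates 5 to 8, and at 75.5 to 92.0 CPM in Ta. Esrra, which encodes an oestrogen-related receptor that regulates respiratory genes, was at 99.4 to 122.7 CPM in Al libraries, 70.2 to 91.5 CPM in W and 59.9 to 93.5 CPM in Ta, so that no Al library overlapped a W library; it too was chosen after its values were seen. Cd72, a B cell receptor regulator, was at 52.7 CPM in Al replicate 7 and at 2.38 to 6 CPM in the other Al libraries, beside 0.801 to 4.69 CPM in W.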
